A study of Mus musculus with 8 samples.

Results

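The 9 genes described here, Adam11, Upp1, Bex6, Sucnr1, Dyrk3, Ppargc1a, Tgm2, Gpr141 and Pacsin1, were selected on their measured LN minus spleen difference in these same arrays, as genes far brighter in splenic than in lymph node (LN) dendritic cells and without a classic role in such cells. All 9 were on the array, with 19 of its 45281 probes, and all 9 passed the detection filter, among 8252 tested of 19057 named genes. The 8 arrays were 4 of LN dendritic cells positive for CCL17 and 4 of splenic dendritic cells negative for CCL17. Both groups were C57BL/6 mice of genotype CCL17E/+, aged 2 to 5 months, heterozygous reporters whose EGFP follows the activity of the chemokine gene Ccl17. All mice had received 100 µg of LPS, the bacterial endotoxin, 15 h earlier. The sort kept cells with CD11c and CD11b and without NK1.1 and CD8alpha. EGFP-positive cells were taken from pooled mesenteric and peripheral LN, and EGFP-negative cells from the spleens of the same mice. Organ and CCL17 status therefore changed together and cannot be told apart. The number of mice behind an array is not given in the sources used here, so the spread between arrays may be partly technical.

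The genes have no shared pathway. Upp1 encodes uridine phosphorylase, which splits uridine into uracil and ribose phosphate and so feeds pyrimidine salvage. Ppargc1a encodes PGC-1alpha, a coactivator that turns on mitochondrial and oxidative genes. Tgm2 encodes the calcium-dependent crosslinking enzyme transglutaminase 2, which also takes part in the uptake of dying cells by macrophages. Sucnr1 is the cell surface receptor for succinate, and Gpr141 is an orphan G protein-coupled receptor. Dyrk3 encodes a dual-specificity kinase that dissolves stress granules and was first described in erythroid progenitors. Pacsin1 encodes an F-BAR protein of endocytosis, best known from neurons and from plasmacytoid dendritic cells. Adam11 encodes a membrane protein of the ADAM family without protease activity, and Bex6 belongs to the BEX family of small proteins.

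Stretches of 250 bases before the gene start are shown for 4 of the genes, because these windows held matches to short motifs of inflammatory or myeloid factors. They are RefSeq sequences of build GRCm38.p6, given 5′ to 3′ on the strand of the gene, with matched motifs in capitals. Promoter entries were present for 7 of the 9 genes, 9 windows in all, 3 of them for Upp1. The windows lie at chr11:9117758-9118007 on the plus strand for Upp1, chr3:60081619-60081868 on the plus strand for Sucnr1, chr16:32179550-32179799 on the plus strand for Bex6 and chr1:131138235-131138484 on the minus strand for Dyrk3.
Upp1: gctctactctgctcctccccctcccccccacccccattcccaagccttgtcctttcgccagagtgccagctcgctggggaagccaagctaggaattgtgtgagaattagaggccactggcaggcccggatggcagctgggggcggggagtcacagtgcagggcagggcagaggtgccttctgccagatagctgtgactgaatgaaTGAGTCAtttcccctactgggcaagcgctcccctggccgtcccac
Sucnr1: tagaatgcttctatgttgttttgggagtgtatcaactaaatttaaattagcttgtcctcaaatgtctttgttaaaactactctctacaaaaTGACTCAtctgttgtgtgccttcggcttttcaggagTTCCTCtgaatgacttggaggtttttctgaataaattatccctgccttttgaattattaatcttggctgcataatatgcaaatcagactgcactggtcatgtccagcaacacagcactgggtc
Bex6: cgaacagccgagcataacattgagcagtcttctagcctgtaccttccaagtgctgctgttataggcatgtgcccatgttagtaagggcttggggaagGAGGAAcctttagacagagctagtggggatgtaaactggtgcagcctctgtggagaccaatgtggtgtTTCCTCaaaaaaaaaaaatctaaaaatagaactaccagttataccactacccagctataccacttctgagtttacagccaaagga
Dyrk3: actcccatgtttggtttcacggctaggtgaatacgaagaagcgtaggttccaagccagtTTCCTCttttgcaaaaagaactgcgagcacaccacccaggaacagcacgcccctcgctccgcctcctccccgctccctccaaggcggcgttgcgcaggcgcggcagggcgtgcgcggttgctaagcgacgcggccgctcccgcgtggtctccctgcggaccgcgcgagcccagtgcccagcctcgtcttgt

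An AP-1 site (TGANTCA, both strands) lay in the Upp1 and Sucnr1 windows. It ended 39 bases before the Upp1 start, written -39, and at -153 in Sucnr1, and 6.75% of 32851 mouse promoter windows of the same length hold one. A second, overlapping Upp1 window holds the same site and the third Upp1 window holds none. The ETS letters bound by PU.1 (GAGGAA, both strands) lay in the windows of Bex6 (at 2 places), Sucnr1 and Dyrk3, against 23.3% of all windows. A TATAAA box, present in 12.4% of windows, was found for Gpr141. The letters of an interferon-stimulated response element (GAAA, any 2 bases, GAAA; 2.98% of windows), a gamma-activated site (TTCNNNGAA, 7.02%), a kappaB site (GGGA, any base, TTTCC; 0.356%), a cyclic AMP response element (TGACGTCA, 1.55%) and a GATA site (AGATAA, 9.99%) were in 0 of the 9 windows. No match overlapped another motif. A match describes letters and is not a binding site.

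Mean intensity per array ran from 334 to 521 in LN cells and from 239 to 510 in splenic cells, and between 13743 and 14985 probes were detected per array, at a detection p under 0.01. Spleen replicate 4 was the dimmest array and had a mean correlation of 0.895 with the other spleen arrays, against 0.947 to 0.956 for spleen replicates 1 to 3 and 0.974 to 0.979 for the LN arrays. Ccl17, whose reporter defined the sort, had a log2 level of 12.51 ± 0.33 in LN cells and 6.24 ± 0.50 in splenic cells (SD, n = 4 each). Of the sort markers, Itgax, which encodes CD11c, passed detection on 3 LN and 3 spleen arrays, Itgam, which encodes CD11b, on 1 LN array and 0 spleen arrays, and Cd8a and Klrb1c (NK1.1) on 0 of 8 arrays. The CD11b sort was thus not visible with the Itgam probe. Among 10 dendritic cell markers 8 were tested and 0 differed by limma.

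All 9 genes were lower in LN cells. For the 5 detected in both groups the log2 differences (LN minus spleen) lay between -3.25 for Adam11 and -1.40 for Pacsin1, and for the other 4 the LN signal was not above background. For each of the 9, all 4 spleen values lay above all 4 LN values, as they did for 9.94% of all genes tested. Since this contrast served to choose the genes, the count and the differences are given as a description without a test. In the order of all differences from the most negative, these 5 stood between place 10 for Adam11 and place 274 for Pacsin1. The choice had no stated threshold. Of the 9 genes 4 (Bex6, Sucnr1, Dyrk3 and Ppargc1a) passed the filter only through the spleen arrays, and 4 of the 19 probes did not pass. In sorted populations fewer cells that make a transcript and less of it per cell cannot be told apart.

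**Figure D1:**
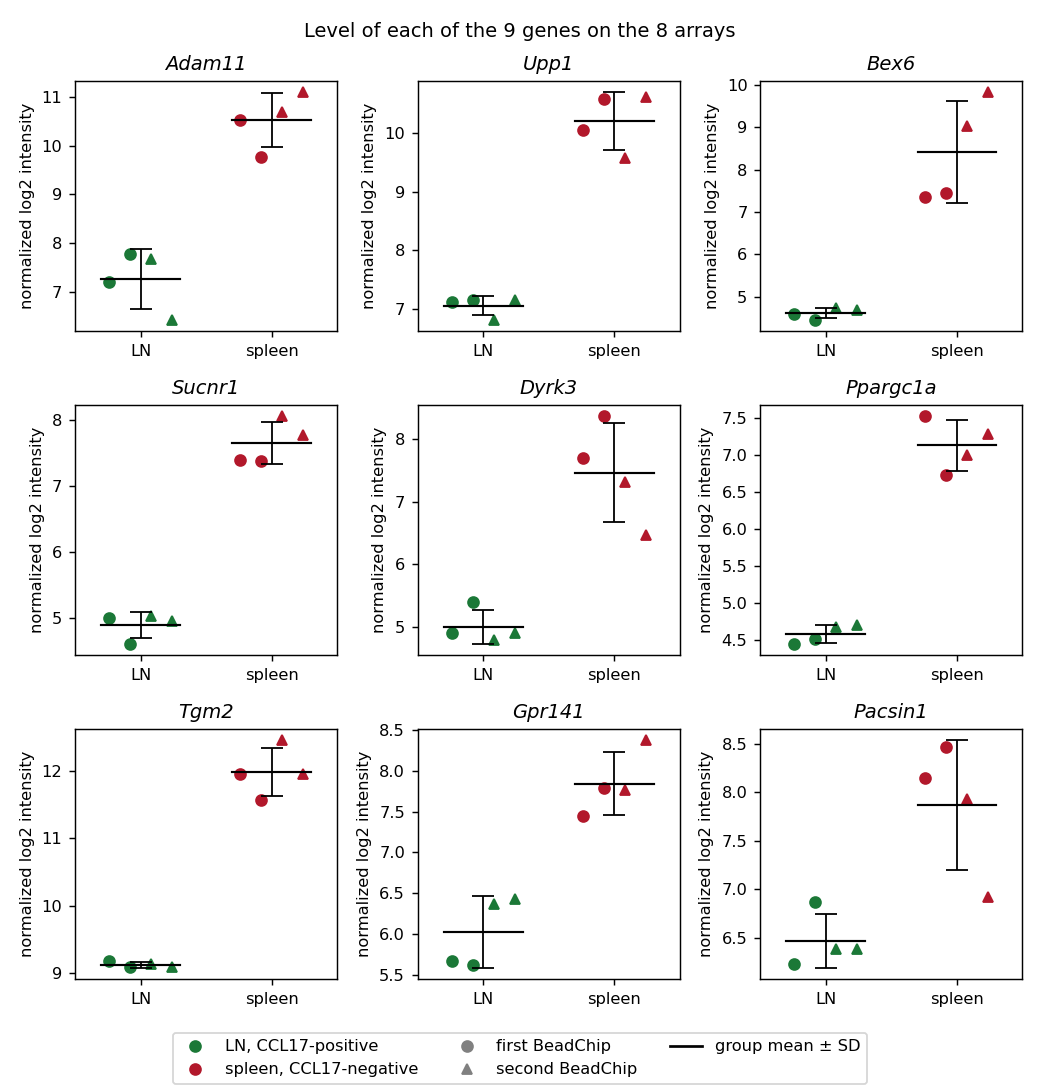
Normalized log2 intensity of the brightest probe of each of the 9 genes (vertical axis, own scale in each panel) for the 4 LN arrays, left, and the 4 spleen arrays, right. Circles are arrays of the first BeadChip, triangles of the second, and bars are the group mean ± SD. The groups do not overlap in any panel, and the gap is narrowest for Pacsin1, at 0.05.

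Upp1, the uridine phosphorylase, was detected on all 8 arrays. It had log2 levels of 7.11, 7.15, 6.81 and 7.14 in LN cells (replicates 1 to 4), against 10.05, 10.57, 9.58 and 10.61 in splenic cells. The mean was 7.05 ± 0.16 in LN cells and 10.20 ± 0.49 in splenic cells (SD, n = 4 each), an 8.87-fold spleen excess. All 3 Upp1 probes passed the filter and had the same direction, with differences of -3.15, -2.65 and -3.20. They were detected on 4, 3 and 1 LN arrays, so the last difference rests mostly on LN signals not above background. Spleen replicate 3 was the lowest spleen array with each of the 3 probes.

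Ppargc1a, the coactivator of mitochondrial genes, was not detected on any LN array. Its probe gave 4.44, 4.51, 4.67 and 4.70 in LN cells, against 7.52, 6.73, 7.00 and 7.27 in splenic cells, where it was detected on all 4 arrays. The LN level is known only to lie below the detection limit, so the spleen signal was at least 3.31-fold higher. That bound sets the spleen mean against, on each LN array, the lowest signal of any detected probe or the probe's own signal if higher. It holds for background-corrected signals, as do the bounds given for Sucnr1, Dyrk3 and Bex6. A second Ppargc1a probe was detected on 0 of 8 arrays and had a difference of -0.05, so the 2 probes of this gene did not behave alike.

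Tgm2 had the tightest LN values of the 9 genes, within 0.09 of each other on the log2 scale. They were 9.18, 9.09, 9.13 and 9.09 in LN cells, against 11.96, 11.57, 12.45 and 11.94 in splenic cells. The mean was 9.12 ± 0.04 in LN cells and 11.98 ± 0.36 in splenic cells (SD, n = 4 each), a 7.24-fold excess in spleen. The other Tgm2 probe was detected on 0 LN arrays and on all 4 spleen arrays, with a difference of -2.09. Spleen replicate 3 was the highest and spleen replicate 2 the lowest with both probes.

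Sucnr1, the succinate receptor, was detected on 0 LN arrays and 4 spleen arrays. The log2 values were 5.01, 4.61, 5.04 and 4.97 in LN cells, against 7.40, 7.38, 8.05 and 7.77 in splenic cells, and the spleen signal was at least 4.76-fold higher. Before normalization its bead intensity was 98.4, 81.2, 82.5 and 76.7 in LN cells, against 257, 229, 277 and 177 in splenic cells. The groups were thus separate in the deposited values too.

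Gpr141, the orphan receptor, was detected on every array at a modest signal. It had 5.67, 5.62, 6.37 and 6.43 in LN cells, against 7.44, 7.79, 7.76 and 8.37 in splenic cells. The mean was 6.02 ± 0.44 in LN cells and 7.84 ± 0.39 in splenic cells (SD, n = 4 each), a 3.53-fold spleen excess. Both LN arrays of the second BeadChip lay above both of the first. The difference of Gpr141 was -1.82, but -1.13 without background correction and -1.22 with the authors' processed values.

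Dyrk3, the stress granule kinase, was detected on 0 LN arrays and 4 spleen arrays and varied within the spleen group. It had 4.89, 5.39, 4.79 and 4.90 in LN cells, against 7.69, 8.36, 7.32 and 6.46 in splenic cells, at least 4.17-fold higher in spleen. Spleen replicate 4 was lowest, with a bead intensity of 104 before normalization, just under the 108 of LN replicate 2. Without spleen replicate 4 the difference was -2.85, against -2.47 with it.

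Bex6 had the widest spread in spleen of the 9 genes. It had 4.60, 4.45, 4.73 and 4.70 in LN cells, all not detected, against 7.36, 7.45, 9.03 and 9.82 in splenic cells. The spleen signal was at least 8.09-fold higher. Bead intensities before normalization were 81.9, 72.3, 72.1 and 69.4 in LN cells, against 250, 238, 484 and 526 in splenic cells, so the 2 spleen arrays of the second BeadChip were the bright ones in the deposited values as well.

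Adam11 was detected on all arrays and moved widely in both groups. It had 7.20, 7.77, 7.68 and 6.42 in LN cells, against 10.53, 9.77, 10.69 and 11.09 in splenic cells. The mean was 7.27 ± 0.62 in LN cells and 10.52 ± 0.55 in splenic cells (SD, n = 4 each), a 9.53-fold excess in spleen. A second passing Adam11 probe had a difference of -2.83, while the 2 probes below the filter had -1.34 and -0.29.

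Pacsin1, the endocytic F-BAR protein, had passing probes with different results. Its brightest probe had 6.23, 6.87, 6.38 and 6.38 in LN cells, against 8.15, 8.47, 7.93 and 6.91 in splenic cells, a 2.64-fold excess in spleen. The lowest spleen value, of replicate 4, was 0.05 above the highest LN value. Before normalization the same array read 122.7, just below the LN range of 122.9 to 191.9. A second Pacsin1 probe, annotated to another transcript record, was detected on 0 LN arrays and 4 spleen arrays. It had 4.69, 4.62, 5.35 and 4.84 in LN cells, not above background, against 6.09, 5.98, 6.38 and 7.80 in splenic cells. Spleen replicate 4 was thus the lowest spleen array with one probe and the highest with the other. The third probe had a difference of -0.01 although it passed the filter, and the fourth was detected on 0 of 8 arrays. With the mean of the passing probes in place of the brightest the difference of Pacsin1 was -1.03.

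**Figure D2:**
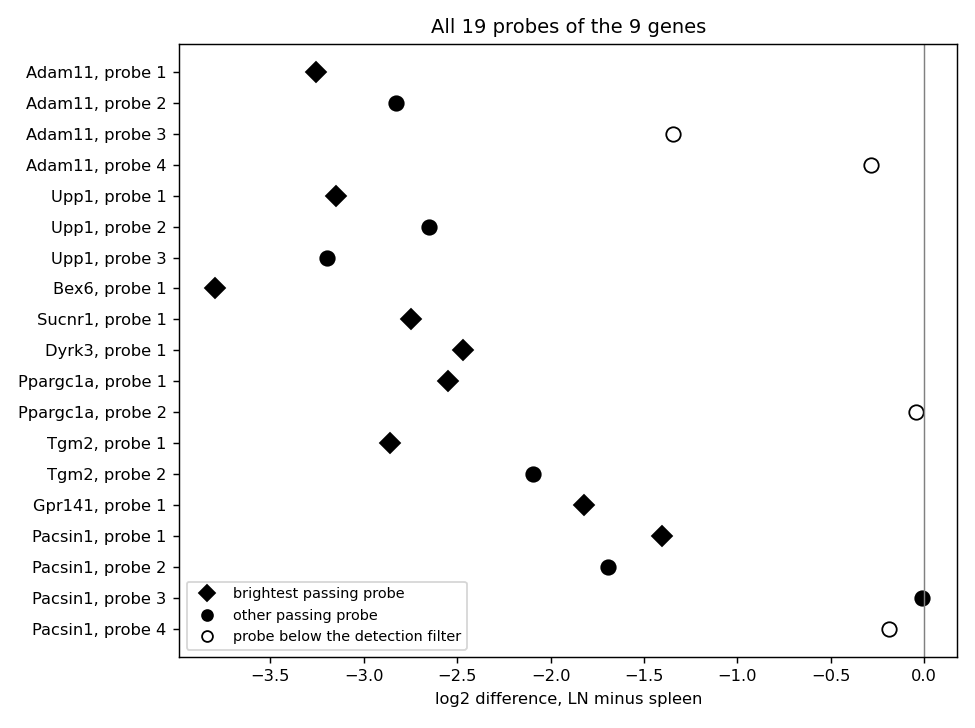
Log2 difference, LN minus spleen (horizontal axis), for each of the 19 probes of the 9 genes (rows, numbered by brightness within a gene). Diamonds are the probes that stand for a gene, filled circles other passing probes and open circles probes below the detection filter. Of the 15 passing probes 14 had separate groups, and the third Pacsin1 probe lay at -0.01.

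Each BeadChip held 2 arrays of each group, so every difference could be taken within a BeadChip. For Bex6 it was -2.88 within BeadChip 1 and -4.71 within BeadChip 2. Adam11 had -2.66 and -3.84, Tgm2 -2.63 and -3.09, and Sucnr1 -2.58 and -2.91, each with the first BeadChip first. Dyrk3 went the other way, with -2.89 and -2.05, as did Pacsin1 with -1.76 and -1.04 and Gpr141 with -1.97 and -1.67. Upp1 (-3.18 and -3.12) and Ppargc1a (-2.65 and -2.45) moved least. All 9 genes, chosen on the difference over these same arrays, were lower in LN cells on both BeadChips. The change of the difference between BeadChips was not used to choose the genes and was tested with limma across all genes, where 0 of 8252 genes (0%) were called and 195 had an unadjusted p under 0.05. Bex6 was at background on the LN arrays of both BeadChips, so its change is that of its spleen values, 7.36 and 7.45 on the first BeadChip and 9.03 and 9.82 on the second, and is given without a test. Without spleen replicate 3, which leaves replicate 4 as the lone spleen array of the second BeadChip, assumed to vary like the others, 1574 genes were called. Of the 5 genes detected in both groups 0 were called in either fit.

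**Figure D3:**
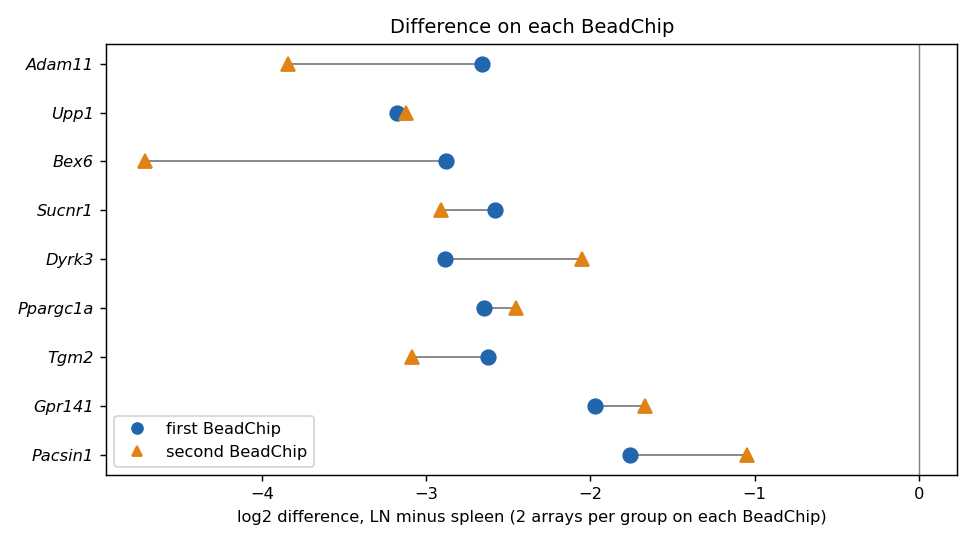
Log2 difference, LN minus spleen (horizontal axis), of the 9 genes (rows) on the first BeadChip, circles, and the second, triangles, each from 2 arrays per group. Adam11 had a larger spleen excess on the second BeadChip and Pacsin1 on the first, and the points of Bex6, Sucnr1, Dyrk3 and Ppargc1a rest on LN signals not above background.

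The family or pathway around each gene was followed in 9 lists of other genes, 100 of which were tested together. Called genes have a limma adjusted p under 0.05. Of the 100 genes 15 were lower in LN cells and 7 higher, against 7.59% lower and 7.99% higher (15.6% in all, 626 and 659 genes) of all 8252 genes. Their median log2 difference was -0.04, against 0.03 over all genes. Same-numbered arrays of the groups, which shared a BeadChip, deviated together. With replicate number as a block 22 of these genes were lower and 12 higher, and with BeadChip as a block 20 were lower and 12 higher. Without spleen replicate 4, 21 were lower and 13 higher. Scaling each array by its median moved the median of all genes by 0.21 and gave 8 lower and 9 higher of the 100, and 315 lower and 625 higher of all genes.

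Genes of pyrimidine salvage and breakdown, the pathway of Upp1, were lower or uncalled. Of 18 tested genes 4 were lower in LN cells and 0 higher, with a median of -0.06. Cmpk2, a mitochondrial nucleotide kinase induced by interferon, had 8.86, 9.12, 8.58 and 7.95 in LN cells, against 10.91, 11.15, 10.75 and 9.34 in splenic cells (difference -1.91 ± 0.40 SE, limma adjusted p 0.00801, but adjusted p 0.0854 with median scaling). The thymidine kinase of DNA synthesis, Tk1, was lower too (-1.90 ± 0.29, limma adjusted p 0.00157) and was detected on 1 LN array and 4 spleen arrays. Within the second BeadChip alone 1 gene of the list was lower, and with median scaling 2. With the block 1 gene was higher, as it was without spleen replicate 4.

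The partners of PGC-1alpha went both ways. Of 19 tested genes 1 was lower and 2 were higher in LN cells, with a median of 0.03. Ppargc1b, which encodes the closest relative of PGC-1alpha, was detected on all 4 LN arrays and on 0 spleen arrays, and so passed the filter only through the LN arrays. It had 5.99, 6.19, 6.91 and 5.78 in LN cells, against 4.67, 5.22, 5.37 and 5.43 in splenic cells, at least 1.59-fold higher in LN (limma adjusted p 0.0325). The p-value thus sets LN signal against background, and the bound again holds only with 16 added before the log2 step. This call was lost when LN replicate 1, 2 or 3, or any of spleen replicates 1 to 3, was left out (limma adjusted p 0.0567 to 0.0861). It was also lost without the detection filter (limma adjusted p 0.0683) and within the second BeadChip alone (limma adjusted p 0.341). Fndc5, the precursor of irisin and a PGC-1alpha target in muscle, was 11.4-fold higher in LN (3.51 ± 0.24 SE, limma adjusted p 1.42e-05). Mef2c, a transcription factor that PGC-1alpha coactivates in muscle, was lower (-1.77 ± 0.31, limma adjusted p 0.00322). With the block 3 genes of this list were lower, as they were without spleen replicate 4, and 2 were lower without spleen replicate 3. The list had 1 higher gene when LN replicate 1, 2 or 3, or spleen replicate 1, 2 or 3, was left out.

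Among receptors for metabolites and nucleotides, the class of Sucnr1, 3 of 9 tested genes were lower in LN cells and 0 higher, and the other 6 did not pass the test. The median difference was -0.64. Ffar4, a receptor for long-chain fatty acids, had 7.47, 7.90, 7.59 and 7.57 in LN cells, against 8.91, 9.49, 8.97 and 9.32 in splenic cells (difference -1.54 ± 0.21 SE, limma adjusted p 0.000673). Ffar2, the receptor for short-chain fatty acids, was 2.79-fold higher in spleen (-1.48 ± 0.22, limma adjusted p 0.00111, but adjusted p 0.0689 with median scaling). The list had 1 lower gene with median scaling and 0 within the second BeadChip alone.

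Orphan and lipid receptors of leukocytes, set around Gpr141, moved in both directions. Of 11 tested 4 were lower and 2 higher in LN cells, with a median of -0.49. Gpr18 had 9.40, 9.75, 9.17 and 8.72 in LN cells, against 11.88, 11.91, 12.09 and 11.45 in splenic cells, a 5.95-fold excess in spleen (-2.57 ± 0.24 SE, limma adjusted p 7.79e-05). The orphan receptor gene Gpr162 was lower too (-2.05 ± 0.32, limma adjusted p 0.00161), detected on 1 LN array and 4 spleen arrays. Gpr55, a receptor for lysophosphatidylinositol (1.79 ± 0.24, limma adjusted p 0.000631), and Gpr137b, a lysosomal membrane protein (1.41 ± 0.24, limma adjusted p 0.00261), were higher in LN. Gpr55 was detected on 4 LN and 2 spleen arrays, and its difference was 0.95 without background correction. The call of Gpr137b was lost within the second BeadChip alone (limma adjusted p 0.0847).

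F-BAR and other proteins listed around Pacsin1 also split, and no dynamin of the list passed the filter. Of 17 tested 1 was lower and 2 were higher in LN cells, with a median of 0.04. Pstpip1, an F-BAR adaptor of the cytoskeleton, had 6.46, 7.06, 6.35 and 6.64 in LN cells, against 9.29, 9.77, 9.48 and 10.53 in splenic cells (-3.14 ± 0.29 SE, limma adjusted p 7.79e-05). Fnbp1, which bends membranes during endocytosis, was 5.70-fold higher in LN (2.51 ± 0.18, limma adjusted p 1.42e-05), and its relative Fnbp1l 3.97-fold (1.99 ± 0.36, limma adjusted p 0.00398). With the block 3 were lower and 4 higher. Without spleen replicate 4, 3 were lower, and without spleen replicate 2, 2 were lower.

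The kinases nearest to Dyrk3 differed little. Of 10 tested DYRK, HIPK and CLK kinases 1 was lower and 0 higher in LN cells, with a median of -0.26. It was Dyrk1b (-0.82 ± 0.24 SE, limma adjusted p 0.0447), and the call was lost when LN replicate 1, 3 or 4, or spleen replicate 1 or 2, was left out (limma adjusted p 0.0679 to 0.135) and with median scaling (adjusted p 0.393). Transglutaminase relatives and partners of Tgm2 in the uptake of dying cells had 1 lower and 1 higher among 6 tested, with a median of 0.17. Mfge8, which bridges dying cells to integrins, was higher in LN (1.05 ± 0.19, limma adjusted p 0.00387), and the integrin chain Itgav was lower (-0.91 ± 0.26, limma adjusted p 0.0391). The call of Itgav was lost when LN replicate 1, 2 or 3, or spleen replicate 2 or 3, was left out (limma adjusted p 0.057 to 0.121). It was lost with median scaling too (limma adjusted p 0.0888). Without the detection filter the calls of Itgav (limma adjusted p 0.0651) and Dyrk1b (limma adjusted p 0.0718) were lost. With the block 2 genes of the Tgm2 list were lower and 2 higher, and without spleen replicate 4, 2 were higher. Within the second BeadChip alone 0 were lower and 0 higher, and the call of Mfge8 was lost (limma adjusted p 0.108).

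No tested relative of Adam11 or Bex6 was called by limma, against 15.6% of all genes. With 6 and 4 genes tested, these counts are too small to differ clearly from that share. Among 6 ADAM genes the median was 0.28, and no LGI gene passed the filter. The largest difference was that of Adam8, a protease of leukocytes, with 9.22, 8.48, 10.29 and 9.58 in LN cells, against 7.37, 7.59, 8.30 and 10.01 in splenic cells (1.08 ± 0.56 SE, limma adjusted p 0.261). Spleen replicate 4 lay within the LN range, and without it Adam8 (adjusted p 0.00786) and Adam15 (adjusted p 0.0176, against 0.267 with it) were called higher. Both were also called higher within the first BeadChip alone (limma adjusted p 0.00549 and 0.0226). Among 4 BEX and TCEAL genes the median was 0.18, and Tceal8 (0.40 ± 0.24, limma adjusted p 0.317) and Bex3 (0.29 ± 0.22, limma adjusted p 0.461) were not called.

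**Figure D4:**
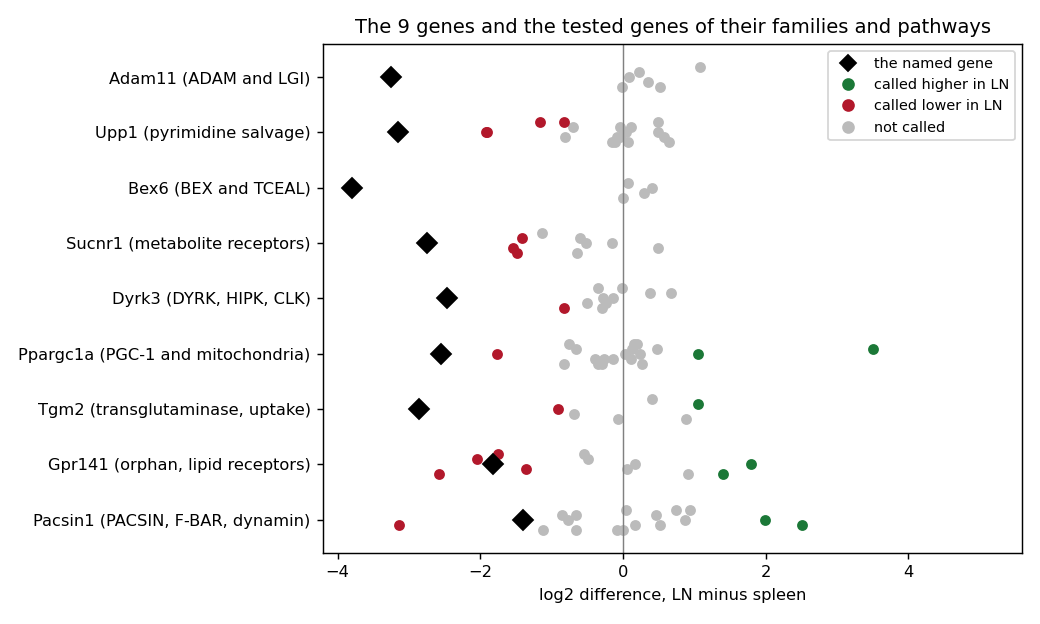
Log2 difference, LN minus spleen (horizontal axis), of each of the 9 genes (diamonds) and of the tested genes of its family or pathway (circles, 1 row per list, offset vertically for legibility). Green circles were called higher in LN, red circles lower, and grey circles were not called. No relative of Adam11 (6 tested) or Bex6 (4 tested) was called, against 15.6% of all genes. The rows of Gpr141, Pacsin1 and Ppargc1a hold genes called in both directions.

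The genes most like each member over the 8 arrays were found by the root mean square difference between mean-centred log2 profiles, which the difference between the organs dominates. Spic, a transcription factor of red pulp macrophages, was nearest to Ppargc1a (0.18), Tgm2 (0.25) and Adam11 (0.46), with Tespa1 next for Ppargc1a (0.25). The interferon-induced exonuclease gene Isg20 came next for Tgm2 (0.30) and Adam11 (0.47). Upp1 was closest to the chemokine gene Cxcl9 (0.28) and to Pstpip1 (0.28), and Sucnr1 to the cytokine gene Il27 (0.22) and to Nrros (0.24). Bex6 was closest to the cytochrome gene Cyp4f16 (0.30), which had 9.60, 9.43, 11.10 and 11.87 in splenic cells and so was also brighter there on the second BeadChip, and then to Alox5ap (0.44). For Dyrk3 the nearest were Fam184a (0.31) and Tagap1 (0.33), and for Gpr141 the GTPase gene Gbp7 (0.19) and the mitotic gene Prc1 (0.20). Pacsin1 was closest to the mitotic kinase gene Plk1 (0.15) and to Lysmd2 (0.17). Only 7 of these 18 places stayed among the 2 nearest with the authors' processed values, so the neighbours depend on the processing. With those values Spic stayed nearest to Tgm2 and Adam11 but fell to place 1061 for Ppargc1a. In these profiles the LN values of Bex6, Sucnr1, Dyrk3 and Ppargc1a were not above background. Within the 9, the closest of the 36 pairs was Sucnr1 with Tgm2 (0.17), but this closeness rests on LN values of Sucnr1 not above background. With the authors' processed values the LN minus spleen differences were -1.61 for Sucnr1 and -2.74 for Tgm2.

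The summed markers of plasmacytoid dendritic cells, erythroid cells, macrophages, monocytes, B cells and neutrophils were brighter on every spleen array than on any LN array, while those of natural killer cells, T cells and platelets overlapped. Each sum follows its brightest markers and does not speak for the rest of its list. The brightest tested in spleen were Irf7 (mean log2 level 13.49) for plasmacytoid dendritic cells, Plac8 (12.62) for monocytes and Spic for macrophages. The neutrophil sum holds no marker that passed the filter. The summed intensity of 15 plasmacytoid dendritic cell markers was 8230 to 10851 in LN cells and 18283 to 37171 in splenic cells, and 4 of 8 tested were lower in LN. They were Lag3, Tlr7, Irf7 and Bst2. Siglech (-0.37) and Tcf4 (-0.41) were not called, nor were Spib (0.75) and Ptprs (0.60), whose differences were positive. The plasmacytoid sum was highest in spleen replicate 4, where one Pacsin1 probe had its lowest and another its highest spleen value. For 14 erythroid markers, globins included, the sum was 431 to 701 in LN cells and 5358, 18106, 40279 and 31867 in splenic cells, and 5 of 5 tested were lower (1 of them detected in spleen only), while Gata1, Ermap, Rhd, Car1, Add2 and Epb42 were detected on 0 of 8 arrays. Dyrk3 was highest in spleen replicates 1 and 2, where these sums were lowest. Macrophage markers summed to 2455 to 3168 in LN cells and 4439 to 5808 in splenic cells, with Cd163, Cd5l and Siglec1 not detected. Spic was the brightest of the tested macrophage markers in spleen, at a mean log2 level of 11.82 against 9.09 in LN cells, and was 6.65-fold higher there in spleen. The macrophage sum thus mostly follows Spic. Nr1h3 was 3.50-fold higher in LN. The median difference of the 9 tested macrophage markers was 0.60, and 4 of the 9 had a negative difference. Monocyte markers summed to 4329 to 6009 in LN cells and 7821 to 9189 in splenic cells. Of 6 tested 2 were lower in LN and 1, Lyz2, was 9.50-fold higher there. B cell markers summed to 368 to 626 in LN cells and 651 to 969 in splenic cells (1 lower of 3 tested, with Ms4a1 and Pax5 not detected). Natural killer cell sums overlapped, at 2494 to 4421 in LN cells and 3395 to 5250 in splenic cells, with 3 of 5 tested lower (1 of them detected in spleen only) and Klrb1c, Ncr1, Klra8, Klra9 and Eomes not detected. No T cell or neutrophil marker passed the filter, with sums of 181 to 342 in LN cells and 173 to 209.6 in splenic cells for T cells and of 293 to 322 and 332 to 635 for neutrophils. Platelet markers summed to 284 to 319.9 in LN cells and 239 to 334 in splenic cells, and the 1 tested, Tubb1, was higher in LN and detected on 0 spleen arrays. The part of these markers in the 9 genes was not tested.

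**Figure D5:**
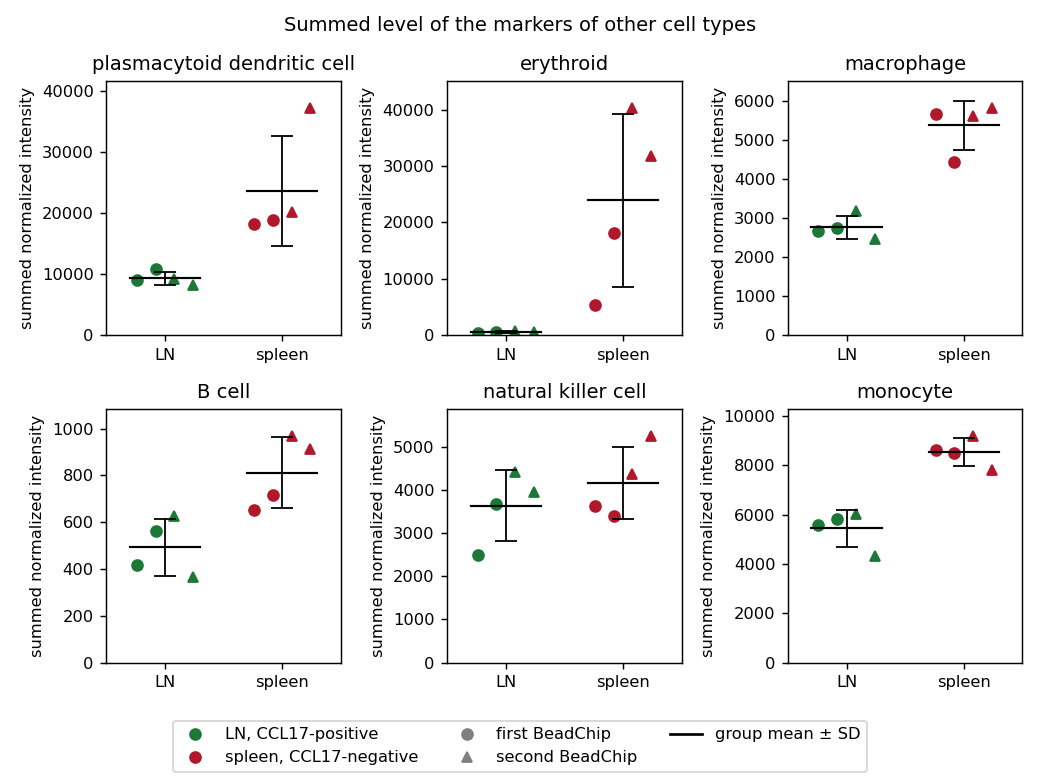
Summed normalized intensity of the markers of 6 other cell types (vertical axes, from 0) for the 4 LN arrays, left, and the 4 spleen arrays, right, with group mean ± SD. Circles are arrays of the first BeadChip and triangles of the second. Only the natural killer cell sums overlap between the groups in these 6 panels, and each sum follows its brightest markers.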

How the data were processed

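RNA of 8 samples was hybridised to mouse Illumina arrays on 2 BeadChips. Per the file headers, the deposited table gives every probe a linear intensity and a detection p-value on each array. The authors' own processed values, used as an alternative, proved to be log2 intensities with identical quantiles across arrays. The submitters' processing notes name Partek with no role given, and the scanner software is not given in the sources used here. Groups and replicate numbers came from sample titles and BeadChips from array names.

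Intensities were background-corrected from the detection p-values, quantile-normalized and log2-transformed after adding 16 (neqc, limma 3.58.1, R 4.3.3; jsonlite 2.0.0; figures with matplotlib 3.10.9 and pandas 2.3.3 under Python 3.11.15). A blank line was left out, and 10378 probes without a listed gene and 18 with several stayed unnamed. Probes needed a detection p under 0.01 on at least 4 of 8 arrays, whatever the group, and the brightest passing probe stood for each gene. Differences are LN minus spleen with the standard error (SE) from lmFit and eBayes with an intensity trend, two-sided, Benjamini-Hochberg adjusted over 8252 genes, called under 0.05. The scripts were tested on simulated data. The number of arrays limits the precision.

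Deviations from the group means correlated between same-numbered arrays at 0.309, 0.571, 0.270 and 0.544 for replicates 1 to 4. Arrays of different number were not compared and each pair shared a BeadChip, so pairing by number and a BeadChip effect cannot be told apart. The series text says that both organs came from the same mice. The main fit used no block. With replicate number as a block 1745 genes were called, and with BeadChip as a block 1741.

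The 9 genes, the lists and the markers were chosen with earlier results of these data known. Named were the 9 genes with every probe, from each list up to 2 called genes per direction with the largest difference (or the 2 largest where none was called), and the 2 nearest profiles per gene. The 20 alternatives changed scaling, background, offset, filter, probe choice, blocks, BeadChips, trend and arrays. Probe positions were not analysed here.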

Additional observations from a re-analysis of the deposited data

Results flagged for a closer look

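In 2 of the 18 groups of 4 values, a single LN array lay far from the other 3 relative to the range of its group; chance alone gives about 1 in 20. Upp1 had a log2 level of 6.81 in LN replicate 3, against 7.11 to 7.15 in the other LN arrays. Sucnr1 had 4.61 in LN replicate 2, against 4.97 to 5.04 in the other LN arrays, and was detected on none of the 4. Both gaps are small beside the differences between LN and spleen, and the lowest spleen value lay 2.43 above the highest LN value for Upp1 and 2.34 for Sucnr1.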

How the results depend on the processing

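All 9 genes stayed lower in LN cells under every alternative in which they could be fitted. They were chosen on this difference in the same arrays, so their direction is a description and not a test. Bex6, Sucnr1, Dyrk3 and Ppargc1a dropped out where detection on all 8 arrays was required. Sizes of dim genes depended on the background step: without background correction Ppargc1a had -1.27, Dyrk3 -1.31, Sucnr1 -1.45, Bex6 -2.25 and Gpr141 -1.13, against -2.55, -2.47, -2.75, -3.80 and -1.82 with it, and with the authors' processed values -1.44, -1.44, -1.61, -2.45 and -1.22. Pacsin1 ran from -1.81 to -0.94 and Adam11 from -3.70 to -2.73.

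Over all genes 1285 were called, 890 to 1991 when 1 array was left out (most without spleen replicate 4), 1745 with the replicate block and 361 within the second BeadChip alone. Of the 100 companion genes 22 were called, 34 with the replicate block, 36 within the first BeadChip alone, 10 within the second alone and 18 to 34 when 1 array was left out. The count of genes whose difference changed between BeadChips was 0, and 0 to 1574 when 1 array was left out, the highest without spleen replicate 3. The replicate block changed no call of a companion gene named above. The cause was not tested. Signals near background limit Bex6, Sucnr1, Dyrk3 and Ppargc1a in LN cells to bounds, which depend on the background step and the offset.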
